A study of Homo sapiens with 36 samples.

Results

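The histone mark H3K27me3 was mapped by ChIP-seq in prostate cancer cells with and without depletion of the long isoform of PHF19 (PHF19L). The samples described are 4 of the 36 in the series: H3K27me3 ChIP of shCTR and of shPHF19L#4 cells, with 2 replicates each. To them belongs the authors' table of 1049 H3K27me3 regions that differed between both conditions, out of 7756 regions in all region tables of the series, of which the 1245 of PHF19 come from a comparison with input. The number 1049 is 1.81% of the 58080 regions in which any of the 4 samples had a peak, and 1024 of the listed regions have exactly the bounds of such a region. The samples were chosen by antibody and hairpin, and the regions are those of the deposited table, which the authors selected by a P value of the same contrast, so the direction of their values is a description.

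DU145 is an established human line that was grown from a brain metastasis of prostate cancer. All cells carried a short hairpin RNA: shCTR is a control hairpin, and shPHF19L#4 targets the long isoform of PHF19. Chromatin was precipitated with an antibody against H3K27me3 together with an antibody against the fly histone H2Av, for fly chromatin added as a spike-in. The study describes the replicates as biological.

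Trimethylation of lysine 27 on histone H3 is placed by Polycomb repressive complex 2 (PRC2), whose catalytic subunit is EZH2 and whose core includes SUZ12. The mark covers the CpG-rich promoters of silent developmental genes, often as broad domains, and marks genes that a cell type keeps off. PHF19 and its relative MTF2 are accessory subunits of PRC2 that bind methylated histone H3 and CpG-rich DNA. The hairpin was not checked here against the level of PHF19, since the RNA samples were not analysed here. No read totals were used here, so sequencing depth is unknown.

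The sequences show where the hairpin acts and what kinds of DNA carried the largest differences. The first is the target of shPHF19L#4, which matched a coding exon of PHF19 on the minus strand at chr9:123620389-123620409 of GRCh37 (hg19). The others are stretches of 240 bases on the plus strand of the same build, with the CG dinucleotides in capitals. Each has the most CG of those stretches in its region that touch no annotated untranslated part of an exon. They come from the promoter region with the largest difference (MEX3D, chr19:1567771-1568010, coding exon), from the region elsewhere in a gene with the largest difference (RASGEF1B, chr4:82917019-82917258, intron) and from the promoter region with the largest difference among those gained in both replicates (RAB40B, chr17:80655817-80656056, intron). A further stretch lies in a group of intergenic regions next to LHX5 (chr12:114029349-114029588), and the last in the only region of the table with a lower value after depletion (nearest gene ADRA1B, chr5:159165936-159166175, intergenic).
shPHF19L#4 target: GCCACACATTTGAGAGCATCA
MEX3D: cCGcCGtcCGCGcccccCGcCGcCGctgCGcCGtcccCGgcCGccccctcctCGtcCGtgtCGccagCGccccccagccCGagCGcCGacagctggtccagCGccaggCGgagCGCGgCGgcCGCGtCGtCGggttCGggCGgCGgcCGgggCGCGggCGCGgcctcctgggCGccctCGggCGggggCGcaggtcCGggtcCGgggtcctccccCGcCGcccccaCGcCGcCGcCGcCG
RASGEF1B: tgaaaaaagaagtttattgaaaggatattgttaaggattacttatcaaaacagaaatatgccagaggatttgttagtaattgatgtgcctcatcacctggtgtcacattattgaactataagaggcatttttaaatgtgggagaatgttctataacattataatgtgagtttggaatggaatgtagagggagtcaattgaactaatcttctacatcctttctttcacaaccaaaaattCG
RAB40B: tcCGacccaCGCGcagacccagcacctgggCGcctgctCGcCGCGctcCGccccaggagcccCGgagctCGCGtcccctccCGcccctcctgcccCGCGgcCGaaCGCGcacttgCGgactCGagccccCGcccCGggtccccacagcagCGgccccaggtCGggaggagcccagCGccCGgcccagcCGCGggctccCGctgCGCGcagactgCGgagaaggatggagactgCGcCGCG
LHX5: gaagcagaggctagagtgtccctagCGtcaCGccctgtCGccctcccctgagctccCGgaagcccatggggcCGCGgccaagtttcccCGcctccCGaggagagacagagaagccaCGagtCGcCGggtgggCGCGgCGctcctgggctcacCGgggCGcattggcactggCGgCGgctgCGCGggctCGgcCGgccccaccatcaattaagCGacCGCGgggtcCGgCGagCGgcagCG
ADRA1B: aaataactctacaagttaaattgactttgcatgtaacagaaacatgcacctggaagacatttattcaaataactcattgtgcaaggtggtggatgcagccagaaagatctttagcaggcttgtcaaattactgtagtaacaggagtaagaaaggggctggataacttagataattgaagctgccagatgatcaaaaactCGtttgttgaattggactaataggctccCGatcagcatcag
The 240 bases held 48 CG at MEX3D, 34 at RAB40B and 29 at LHX5, but 1 at RASGEF1B and 2 near ADRA1B. The GC content of the same stretches was 87.1%, 79.2%, 72.9%, 32.1% and 38.8%. Very CG-rich promoter DNA and AT-rich intron DNA were thus both among the regions with the largest differences.

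The replicates went opposite ways in the extent of H3K27me3 peaks, which are not scaled to the spike-in. The authors called peaks, places where ChIP reads outnumber those of the control, in each sample on its own. Replicate 1 held 39254 peaks in shCTR and 35128 in shPHF19L#4 cells, which covered 108 and 96.9 Mb of the genome. Replicate 2 held 15994 peaks in shCTR and 57026 in shPHF19L#4 cells, which covered 30.4 and 159 Mb. The 2 shPHF19L#4 lists therefore did not stand on the same side of the 2 shCTR lists: shCTR replicate 2 had the fewest peaks, shPHF19L#4 replicate 2 had the most, and both lists of replicate 1 lay between them. Within replicate 1 the ratio of covered length, shPHF19L#4 to shCTR, was 0.895, and within replicate 2 it was 5.24. With 2 samples a side, an exact permutation test could not go below p = 0.333, so no test was run. When the same number of highest-scoring peaks was taken from all 4 lists, the ratio of covered length was 0.952 in replicate 1 and 3.21 in replicate 2.

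**Figure D1:**
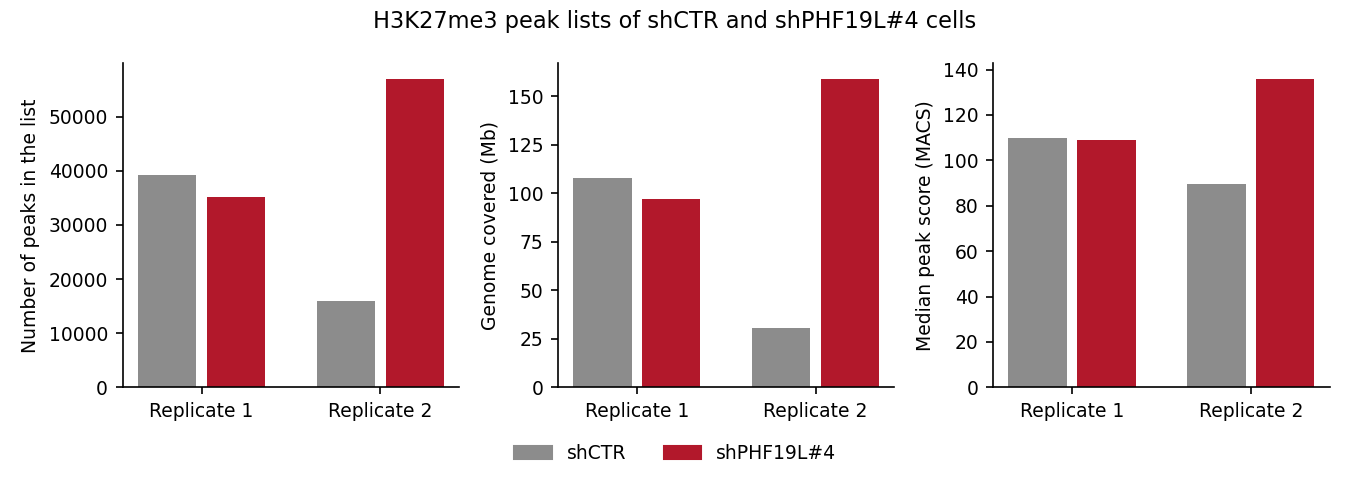
Number of H3K27me3 peaks, length of genome they cover (Mb) and median peak score (MACS) in each of the 4 lists, shCTR in grey and shPHF19L#4 in red, 1 bar per sample. In replicate 1 both conditions are close (108 and 96.9 Mb), while in replicate 2 shPHF19L#4 covers 159 Mb and shCTR 30.4 Mb.

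The scores of the peaks followed the same split. Each peak carries a MACS score, which ranks the significance of the peak call and starts at 50 in every list. Such a score also depends on read depth, which is unknown here, so it is not a measure of enrichment alone. The median score was 110 in shCTR and 109 in shPHF19L#4 cells of replicate 1, and 89.7 and 136 in replicate 2. Broad domains over 10 kb numbered 1058 and 969 in replicate 1, and 110 and 2181 in replicate 2. Scores stop near 3100, which limits the score ratios of replicate 2: a score of 3100 or more was reached by 776 peaks of shPHF19L#4 replicate 2, and by 15, 2 and 2 peaks of shCTR replicate 1, shPHF19L#4 replicate 1 and shCTR replicate 2. The peaks of shCTR replicate 2 were also the richest in promoters (20.2%, against 10.7% to 12.2% in the other lists) and in GC (median 43.1%, against 41.1% to 42.4%).

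Most H3K27me3 peaks of control cells had a partner in depleted cells. In replicate 1, 69.7% of the shCTR peaks were overlapped by a shPHF19L#4 peak by at least 1 base, and in replicate 2 it was 95.8%. Conversely, 79.1% of the shPHF19L#4 peaks of replicate 1 were overlapped by a shCTR peak, but 16.9% of those of replicate 2, 5.97% where 50% of the peak had to be covered, and 49.0% with the same number of highest-scoring peaks from each list. Peaks of replicate 1 without a partner in the other condition were narrow and had low scores. The shCTR peaks lost there had a median score of 70.0, against 154 for those kept, and the shPHF19L#4 peaks gained there had a median score of 68.2, against 133 for those shared. The 47414 peaks gained in replicate 2 had a median score of 111, against 901 for the 9612 that a shCTR peak overlapped.

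The replicates were then compared region by region. Peaks of all 4 lists that overlapped were merged into 58080 candidate regions, and a region was called gained in a replicate where shPHF19L#4 had a peak and shCTR had none, and lost in the reverse case. Gains numbered 5608 in replicate 1 (9.66% of the regions) and 41826 in replicate 2 (72.0%), and 3257 regions (5.61%) were gained in both. Losses numbered 9424 in replicate 1 (16.2%) and 456 in replicate 2 (0.785%), and 54 regions (0.0930%) were lost in both. Of the regions gained in replicate 1, 58.1% were gained in replicate 2, but of those lost in replicate 1, 52.2% were gained in replicate 2 too. A gain in replicate 2 was therefore nearly as frequent where replicate 1 had a loss as where it had a gain. The commonest pattern, in 23067 regions (39.7%), was a peak in shPHF19L#4 replicate 2 alone.

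Where peaks were present in both conditions, scores told the same story. In replicate 1 the shPHF19L#4 score was higher in 42.2% of 18994 shared regions, with a median log2 ratio of −0.14. In replicate 2 it was higher in 98.3% of 8783 shared regions, with a median log2 ratio of 2.73. Over the 7151 regions with a peak in all 4 lists, the log2 ratios of both replicates had a Spearman correlation of 0.152 across regions, which are not independent of each other. In 2844 of these regions the score was higher in shPHF19L#4 cells in both replicates, and in 4223 it was lower in replicate 1 and higher in replicate 2.

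**Figure D2:**
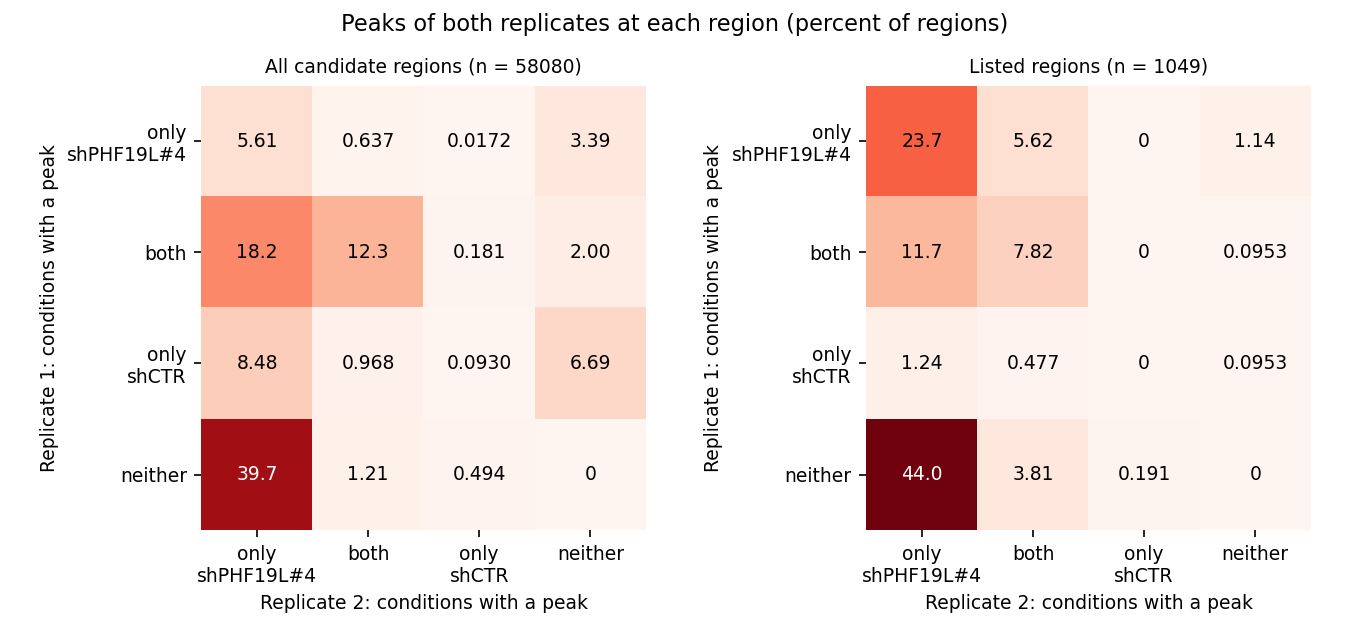
Percent of regions by which conditions had a peak in replicate 1 (rows) and replicate 2 (columns), for all 58080 candidate regions and for the 1049 regions of the authors' table. A peak only in shPHF19L#4 cells in both replicates was found at 5.61% of candidate regions and 23.7% of listed regions.

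Nearly all regions of the authors' table had more H3K27me3 after depletion of PHF19L. The table gives the mean log2 read concentration of each condition over both replicates, as the authors computed it, and no value per replicate. It was higher in shPHF19L#4 cells in 1048 of the 1049 regions and lower in 1. The median concentration was 5.90 in shCTR and 7.01 in shPHF19L#4 cells, and the median difference (shPHF19L#4 minus shCTR, log2) was 1.13, with 5th and 95th percentiles of 0.95 and 1.71. Regions entered the table by a P value under 0.05, which is not adjusted for the number of regions. The number of regions the authors compared is not known here. The listed regions are 1.81% of the 58080 candidate regions, while such a threshold passes 5% where nothing differs. How many of the listed differences would recur was not tested.

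Most differences lay close to the median. Differences from 1 to under 1.5 were seen in 716 regions (68.3%), and differences of 2 or more in 18 regions, whose median width was 798 bp and whose median shCTR concentration was 2.37. Across the 1049 regions the difference had a Spearman correlation of −0.61 with width and −0.68 with the shCTR concentration, which is part of the difference itself. Width and shCTR concentration had a correlation of 0.94 with each other, and regions were listed by a P value of the same contrast, so these correlations follow in part from the selection. The correlation of the difference with GC content was −0.05.

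**Figure D3:**
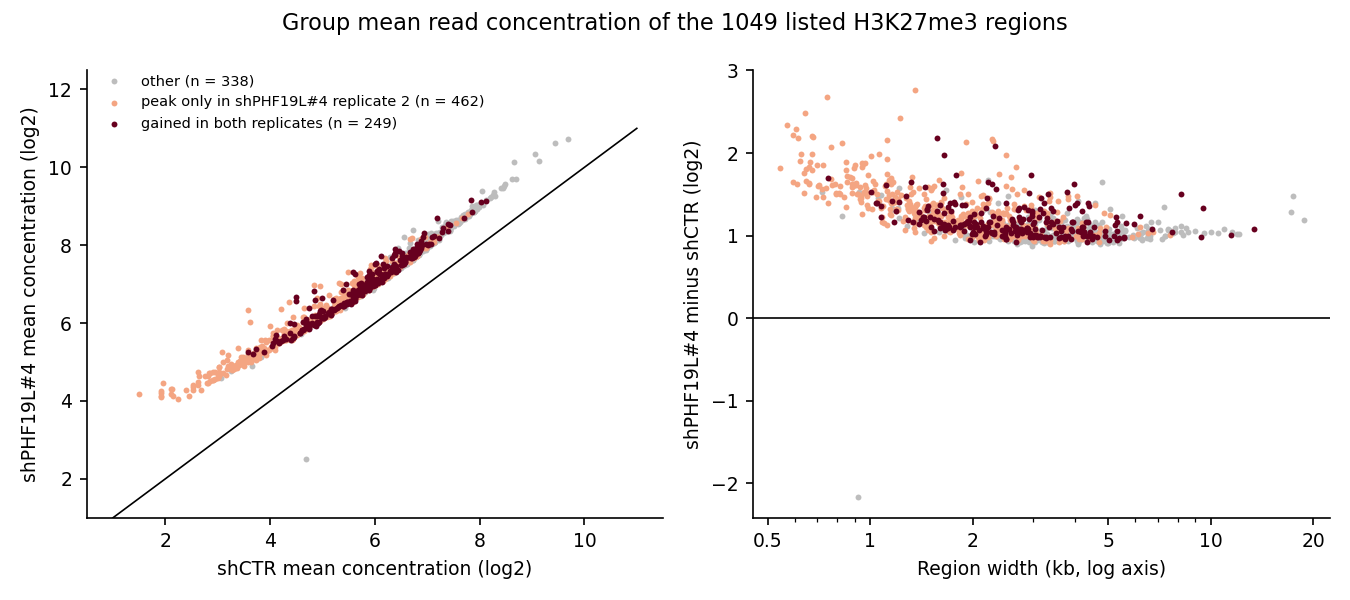
Left, mean log2 read concentration of shPHF19L#4 against shCTR for each of the 1049 listed regions, with the line of equality; right, difference (log2) against region width (kb, log axis). Each point is 1 region, coloured by the peaks at it. All but 1 region lie above equality. Regions with differences of 2 or more have a median width of 798 bp, against 2493 bp for all listed regions.

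The region with the largest difference lay over the promoter and a coding exon of MEX3D, which encodes an RNA-binding protein, at chr19:1566657-1568011. Its concentration was 3.58 in shCTR and 6.34 in shPHF19L#4 cells, a difference of 2.76, and 77.6% of its bases were G or C. The next was an AT-rich stretch in an intron of RASGEF1B, a guanine nucleotide exchange factor, at chr4:82916716-82917461 (difference 2.68). An intron of TENM3, a teneurin adhesion protein of the nervous system, followed with a difference of 2.49. At these 3 regions only shPHF19L#4 replicate 2 had a peak, with scores of 185, 51.6 and 56.1, the latter 2 just above the lowest score of 50.

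Of the 20 largest differences, 11 lay at promoters. A pair of neighbouring regions over the start of PRDM16, a transcriptional regulator of brown fat and blood stem cells, had differences of 2.42 and 2.08. The promoter of MYCN, a proto-oncogene of the MYC family, had a difference of 2.14 (4.21 in shCTR and 6.35 in shPHF19L#4 cells). Promoters of NRTN, a ligand of the GDNF family, and of GRIK3, a kainate receptor subunit, had differences of 2.15 and 2.16, and that of KIF5C, a neuronal kinesin, 2.18. The promoter of STAR, which moves cholesterol into mitochondria for steroid synthesis, had a difference of 2.12. Promoters of SSBP4 and DMTN, which encodes the actin-binding protein dematin, had differences of 2.17 and 1.99. A promoter region of MADCAM1 tied with DMTN at 1.99 and is not counted among the 20.

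The rest of the 20 were introns and intergenic stretches. Introns of SLC2A3, the glucose transporter GLUT3, CPNE4, a calcium-dependent membrane-binding protein, HAUS7, a subunit of the augmin complex, and CFAP299 had differences of 2.34, 2.29, 2.22 and 1.99. Intergenic regions lay nearest to RBM26 (157 kb away, 2.21), ATOH1 (32.4 kb, 2.20) and RAB11FIP2 (129 kb, 2.07). Of the 20 regions, 18 had a peak only in shPHF19L#4 replicate 2, and 12 of the 20 peaks of that replicate scored under 100. The other 2 were gained in both replicates: the promoter of RAB40B, a small GTPase (difference 2.18, scores 54.5 and 534 in shPHF19L#4 replicates 1 and 2), and PRDM16 (scores 60.6 and 345). None of the 20 had a peak in a shCTR list. The table gives no value per replicate, so the part of each replicate in these differences was not measured.

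The only region with a lower value was intergenic, at chr5:159165936-159166855, 126 kb from the start of ADRA1B, the alpha-1B adrenergic receptor. Its concentration was 4.68 in shCTR and 2.51 in shPHF19L#4 cells, a difference of −2.17. Only shCTR replicate 1 had a peak there, with a score of 62.0.

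Promoters and CpG-rich DNA made up far more of the listed regions than of H3K27me3 peaks at large. With a promoter taken as 2.5 kb to each side of a start site of a protein-coding transcript, 509 listed regions (48.5%, 95% Wilson interval 45.5% to 51.5%, which covers counting error over regions only) overlapped a promoter, against 11.8% of candidate regions. The rest of a gene held 216 (20.6%, against 31.0%), and 324 were intergenic (30.9%, against 57.2%). The median distance from the midpoint of a listed region to the nearest start site was 4636 bp, against 48380 bp for candidate regions. Among listed regions gained in both replicates the promoter share was 41.8%, and among candidate regions gained in both it was 10.1%.

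The listed regions were also rich in G and C. Their median GC content was 55.6%, against 42.0% for candidate regions, and their median number of CG per 100 bases was 3.51, against 0.745. The table listed 0.441% of the candidate regions with under 40% GC, 0.896% of those with 40% to 50%, 4.64% of those with 50% to 60%, and 17.2% of those with 60% or more. The same order held away from promoters, from 0.443% to 9.60%. Windows of 200 bases with at least 50% GC and an observed-to-expected CG ratio of at least 0.6, which are the usual terms for a CpG island, were found in 726 listed regions (69.2%) and in 18.3% of candidate regions. Among regions under 2 kb wide these shares were 48.7% and 8.86%.

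**Figure D4:**
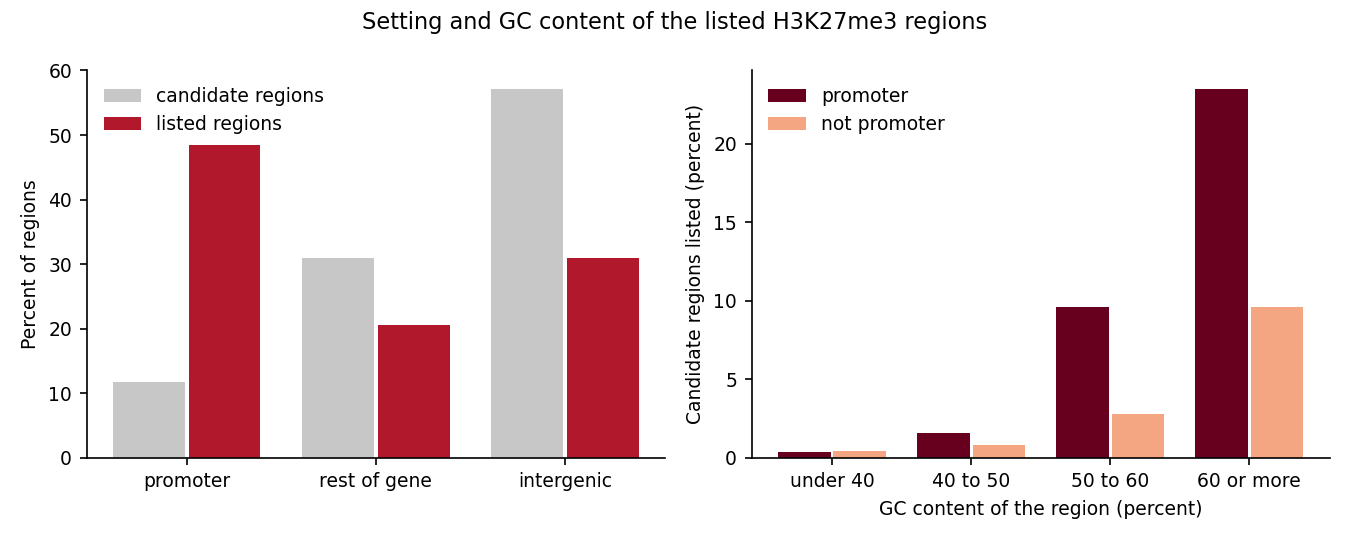
Left, percent of candidate and of listed regions over promoters, the rest of genes and intergenic sequence. Right, percent of candidate regions that the table lists, by GC content of the region (percent) and by whether it overlaps a promoter. The listed share is highest, at 23.5%, for promoter regions with 60% GC or more.

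The listed regions without a peak in control cells mostly stood apart from the domains of the control cells. No shCTR peak overlapped 723 of the 1049 (68.9%, against 48.7% of candidate regions). The nearest peak of either shCTR list was a median of 18.2 kb away, against 4.92 kb for candidate regions without a shCTR peak, and lay within 5 kb for 29.2%, against 50.4%. It was over 50 kb away for 33.9%, against 11.5%. The listed gains were thus less often next to an existing domain than gains in general were.

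The group with the largest number of neighbouring listed regions lay beside LHX5, a LIM homeobox factor of the developing brain. With regions up to 50 kb apart joined, it held 12 intergenic regions over 236 kb, at chr12:113914843-114150879, upstream of LHX5. Their differences ran from 0.98 to 1.53, 5 of the 12 were gained in both replicates, and their median GC content was 48.1%. Among the 5, the region at chr12:114029063-114032206 has a difference of 1.32 and holds the CG-rich stretch printed above. This group was singled out after its values were seen.

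Peaks at the listed regions differed between the replicates in number but seldom in direction. A peak overlapped 225 of them (21.4%) in shCTR and 526 (50.1%) in shPHF19L#4 cells of replicate 1, and 188 (17.9%) and 1033 (98.5%) in replicate 2. Gains numbered 320 in replicate 1 (30.5%, against 9.66% of candidate regions) and 847 in replicate 2 (80.7%, against 72.0%), and 249 regions (23.7%, against 5.61%) were gained in both. Losses numbered 19 in replicate 1 (1.81%, against 16.2%) and 2 in replicate 2. Listed regions therefore did not share the losses of replicate 1. The table was made from the same reads as the peaks, so these counts describe the selection and are no separate evidence for it. With the same number of highest-scoring peaks from each list, 110 were gained in both, and with 1 replicate alone 320 or 847.

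Replicate 1 had no peak in either condition at 504 of the listed regions (48.0%, against 41.4% of candidate regions). At 462 regions the only peak was that of shPHF19L#4 replicate 2. Covered length within the region was larger in shPHF19L#4 cells in 513 regions, smaller in 32 and equal in 504 in replicate 1. In replicate 2 it was larger in 1033 and smaller in 2, and it was larger in both replicates in 500 (47.7%). Where a region had peaks in both conditions, the score was higher in shPHF19L#4 cells in 176 of 206 regions of replicate 1 (median log2 ratio 0.80) and in 186 of 186 regions of replicate 2 (3.52).

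Among regions gained in both replicates, the largest promoter differences after RAB40B and PRDM16 were those of MAPK11, a p38 kinase (1.98), PXDN, a peroxidase that crosslinks collagen IV (1.74), and CDYL2, a chromodomain protein (1.73). The promoter of ATOH1, a bHLH factor of hair cells and cerebellar neurons, had 1.65, and the promoter of NFATC1, a calcium-responsive transcription factor, had 1.63. In replicate 1 the scores of these 5 regions ran from 56.2 to 153, and in replicate 2 from 318 to 735. They were named after their values were seen.

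Listed regions reached 711 of 20163 protein-coding genes (3.53%), taken from 2.5 kb upstream of the start to the end of the gene. Of these, 635 had 1 listed region, and 76 had more. PTPRN2, RASGEF1B and SHANK1 had the most, with 6 each, and C4orf50, EPHB1, FGF14 and WSCD2 had 5 each. CFAP299, CRMP1, an axon guidance protein, KNDC1 and TENM2, a teneurin, had 4 each. SHANK1, a scaffold of the postsynaptic density, spans 60.5 kb, and KNDC1 66.2 kb, while PTPRN2 spans 1049 kb. In EPHB1, an Eph receptor, and in WSCD2, all 5 regions were gained in both replicates, with differences from 0.95 to 1.10 and from 0.96 to 1.18. In PTPRN2, a phosphatase-like protein of secretory vesicles, differences ran from 1.03 to 1.75, and 2 of its 6 regions were gained in both. In FGF14, which binds sodium channels, they ran from 1.03 to 1.43, with 1 of 5 gained in both.

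By the number of genes with a peak, depletion again went with more H3K27me3 in replicate 2 and with little net difference in replicate 1. In replicate 1 a peak lay in 3955 protein-coding genes with shCTR and in 3867 with shPHF19L#4 (19.6% and 19.2%), and in 2979 and 5856 in replicate 2 (14.8% and 29.0%). A gene was called gained where shPHF19L#4 had a peak in it and shCTR of the same replicate had none. Gains numbered 471 in replicate 1 (2.34% of the genes) and 2915 in replicate 2 (14.5%), and 288 genes (1.43%) were gained in both. Losses numbered 559 in replicate 1 (2.77%) and 38 in replicate 2 (0.188%), and 6 genes (0.0298%) were lost in both. Of the genes gained in replicate 1, 61.1% were gained in replicate 2, and of those lost in replicate 1, 54.0% were gained in replicate 2. With the same number of highest-scoring peaks from each list, 1101 genes were gained in replicate 2, 150 were gained in both replicates, and 226 were lost in replicate 2.

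Length covered by peaks inside genes was compared as well. In replicate 1 it was larger in shPHF19L#4 cells in 1876 genes and smaller in 2480. In replicate 2 it was larger in 5808 genes and smaller in 70. It was larger in shPHF19L#4 cells in both replicates in 1810 genes (8.98%) and smaller in both in 28 (0.139%). It was smaller in replicate 1 and larger in replicate 2 in 2321 (11.5%), more genes than were larger in both. Of the 288 genes gained in both replicates, 102 (35.4%) had a listed region.

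Among the genes gained in both replicates, a few with much added length are described as examples, singled out after their values were seen. CDH4, which encodes R-cadherin, had 3.59 kb of peaks in shPHF19L#4 cells of replicate 1 and 23.7 kb in replicate 2. GPR26, an orphan receptor, had 1.21 and 18.5 kb, and NXPH1, a neurexophilin, had 8.86 and 9.45 kb. B3GAT1, which makes the HNK-1 carbohydrate, had 3.16 and 7.72 kb. KRT9, a keratin of palms and soles, had 5.55 and 6.30 kb, and TAS1R2, a sweet taste receptor subunit, had 4.09 and 9.48 kb. None of these genes had a peak in a shCTR list.

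The 6 genes that lost every peak in both replicates were SPRR4, SCN9A, SLC25A36, MET, OR4D9 and RD3L, named after their values were seen. The count was 2 with scores of at least 100 and 28 with the same number of highest-scoring peaks. SPRR4, a small proline-rich protein of the skin barrier, had 4.43 kb of peaks in shCTR replicate 1 and 4.14 kb in shCTR replicate 2, with scores of 245 and 243. MET, the receptor of hepatocyte growth factor, had 2.83 and 1.25 kb, with scores of 68.8 and 78.0, and SCN9A, a sodium channel of pain neurons, had 1.41 and 0.790 kb. None of the 6 had a listed region.

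Developmental transcription factor genes carried H3K27me3 to different extents. The gene lists by role were described beside all protein-coding genes, of which 3.53% had a listed region and 19.6%, 19.2%, 14.8% and 29.0% had a peak in shCTR and shPHF19L#4 of replicate 1 and of replicate 2. By covered length, 8.98% of all protein-coding genes were larger in both replicates. A further 11.5% were smaller in replicate 1 but larger in replicate 2. The examples of transcription factor, signalling, receptor, channel and cadherin genes with covered lengths were chosen for more covered length in shPHF19L#4 cells in both replicates. A peak lay in 31 of 51 homeobox genes outside the HOX clusters (families such as NKX, LHX, PAX and IRX) in shCTR replicate 1, in 32 in shPHF19L#4 replicate 1, and in 32 and 39 in replicate 2. Covered length was larger in both replicates in 19 and was smaller in replicate 1 but larger in replicate 2 in 13. A listed region lay in 6 of them (11.8%), among them PAX7, a factor of muscle stem cells, and IRX4, a factor of the heart ventricle. IRX4 had 6.30 kb of peaks in shCTR and 8.93 kb in shPHF19L#4 cells of replicate 1, and 2.65 and 10.4 kb in replicate 2. The 23 neural bHLH genes had peaks in 17, 16, 15 and 20, in the same order of lists, and 4 (17.4%) had a listed region, while 6 were more covered in both replicates and 7 less in replicate 1 but more in replicate 2. Among the listed genes was BHLHE22, which had no peak in shCTR cells and 3.64 and 5.62 kb in shPHF19L#4 replicates 1 and 2.

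Of the 39 HOX genes, which pattern the body axis, 15, 14, 12 and 25 had a peak. Of the 39, 5 were more covered in both replicates, and 11 less in replicate 1 but more in replicate 2. For 1 (2.56%), HOXB7, a listed region lay just upstream of its annotated extent, and this region is intergenic by the start sites of coding transcripts. HOXC13 was gained in both replicates, with 1.72 and 4.42 kb in shPHF19L#4 cells. Of 52 forkhead genes, 23, 21, 21 and 28 had a peak and 5 (9.62%) a listed region, with 12 more covered in both replicates and 9 less in replicate 1 but more in replicate 2. Among them FOXA3, a factor of liver and gut, had 0 kb in shCTR and 2.90 kb in shPHF19L#4 cells of replicate 1, and 0.742 and 4.04 kb in replicate 2. The 19 SOX genes (11, 10, 10 and 12 with a peak), the 17 T-box genes (6, 5, 5 and 10) and the 6 GATA genes (4 in each list) had no listed region.

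Genes of developmental signalling were counted in the same way. Of 38 WNT ligand, Frizzled and antagonist genes, 21, 18, 19 and 28 had a peak and 5 (13.2%) a listed region, with 10 more covered in both replicates and 11 less in replicate 1 but more in replicate 2. WNT10A had 2.80 kb in shCTR and 7.33 kb in shPHF19L#4 cells of replicate 1, and 2.27 and 8.05 kb in replicate 2. Of 22 BMP and Hedgehog genes, 13, 13, 12 and 17 had a peak and 4 (18.2%) a listed region, among them SHH, a Hedgehog ligand. Of the 22, 9 were more covered in both replicates and 4 less in replicate 1 but more in replicate 2. GLI3, a transcription factor of the same pathway, was covered over 180 and 201 kb in replicate 1 and over 84.7 and 242 kb in replicate 2. Of 22 ephrin and Eph receptor genes, 12, 11, 10 and 14 had a peak and 3 (13.6%) a listed region, with 8 more covered in both replicates and 4 less in replicate 1 but more in replicate 2. EPHB1 had 70.8 kb in shCTR and 106 kb in shPHF19L#4 cells of replicate 1, and 3.06 and 164 kb in replicate 2, so its listed regions lay in a gene with a domain already there in shCTR replicate 1.

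Listed regions also lay in genes of synaptic receptors and ion channels. Of 26 glutamate receptor genes, 17, 17, 14 and 21 had a peak and 9 (34.6%) a listed region. Long genes have more room for a listed region, and shares were not adjusted for gene length. With 2.5 kb upstream, GRIN2B spans 547 kb and GRID1 770 kb. None of the 26 was gained in both replicates, while 1.43% of all protein-coding genes were. A list of 26 is too small to set 0 apart from that share. The 13 genes with a peak in all 4 lists could not count as gained. Of the 26, 11 were more covered in both and 7 less in replicate 1 but more in replicate 2. GRIN2B, an NMDA receptor subunit, was covered over 375 and 378 kb in replicate 1 and over 46.8 and 475 kb in replicate 2. GRID1, a delta receptor, had 2 listed regions and was covered over 83.9 and 103 kb in replicate 1 and over 14.6 and 231 kb in replicate 2. Of 40 voltage-gated potassium channel genes, 25, 24, 22 and 29 had a peak and 8 a listed region, with 12 more covered in both replicates and 14 less in replicate 1 but more in replicate 2. KCNB2 had 10.2 and 22.9 kb in replicate 1, and 0 and 38.8 kb in replicate 2.

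Among cell adhesion genes, clustered protocadherins had fewer peaks after depletion in replicate 1 and more in replicate 2. The clustered protocadherin genes, which give neurons their surface identity, had a peak in 17 of 53 genes in shCTR and 3 in shPHF19L#4 cells of replicate 1, where 15 were lost (2.77% of all protein-coding genes were). In replicate 2 the numbers were 17 and 31, and 15 were gained (14.5% of all genes were). Many annotated extents in these clusters overlap, so a peak can count in several genes. No gene of the cluster had a listed region. Of the 23 cadherin genes 8, 10, 9 and 13 had a peak and 2 (8.70%) a listed region, CDH4 and CDH15, the cadherin of muscle. By covered length 3 were larger in both replicates, and 7 smaller in replicate 1 but larger in replicate 2. CDH15 had 0 and 5.52 kb in replicate 1, and 5.05 and 17.6 kb in replicate 2.

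Large families outside development had few listed regions. Of 399 olfactory receptor genes, 156, 147, 73 and 181 had a peak, but 3 (0.752%) had a listed region. Of 508 zinc finger genes with ZNF names, 41, 34, 29 and 75 had a peak, and 9 (1.77%) had a listed region. Of 55 keratin genes, 20, 15, 13 and 22 had a peak and none a listed region.

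In lists tied to the tumour and to PRC2 itself, 2 genes had a listed region. Of 10 cell cycle inhibitor genes, only CDKN1C, an imprinted inhibitor of cyclin-dependent kinases, was gained in both replicates, with scores of 91.2 and 395 in shPHF19L#4 cells, and it had a listed region. Of 12 genes for PRC2 and accessory subunits, 2, 2, 1 and 1 had a peak, and EPOP, which encodes a PRC2 partner, had a listed region. Of 15 hypoxia and angiogenesis genes, 4, 3, 5 and 7 had a peak and none a listed region. Of 10 prostate lineage genes, 4, 4, 2 and 5 had a peak, of 8 epithelial genes 2, 2, 4 and 4, and of 8 mesenchymal genes 4, 4, 3 and 4, while 19.6%, 19.2%, 14.8% and 29.0% of all protein-coding genes had a peak. None of these 3 lists had a listed region. The 10 housekeeping genes had no peak in any list.

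**Figure D5:**
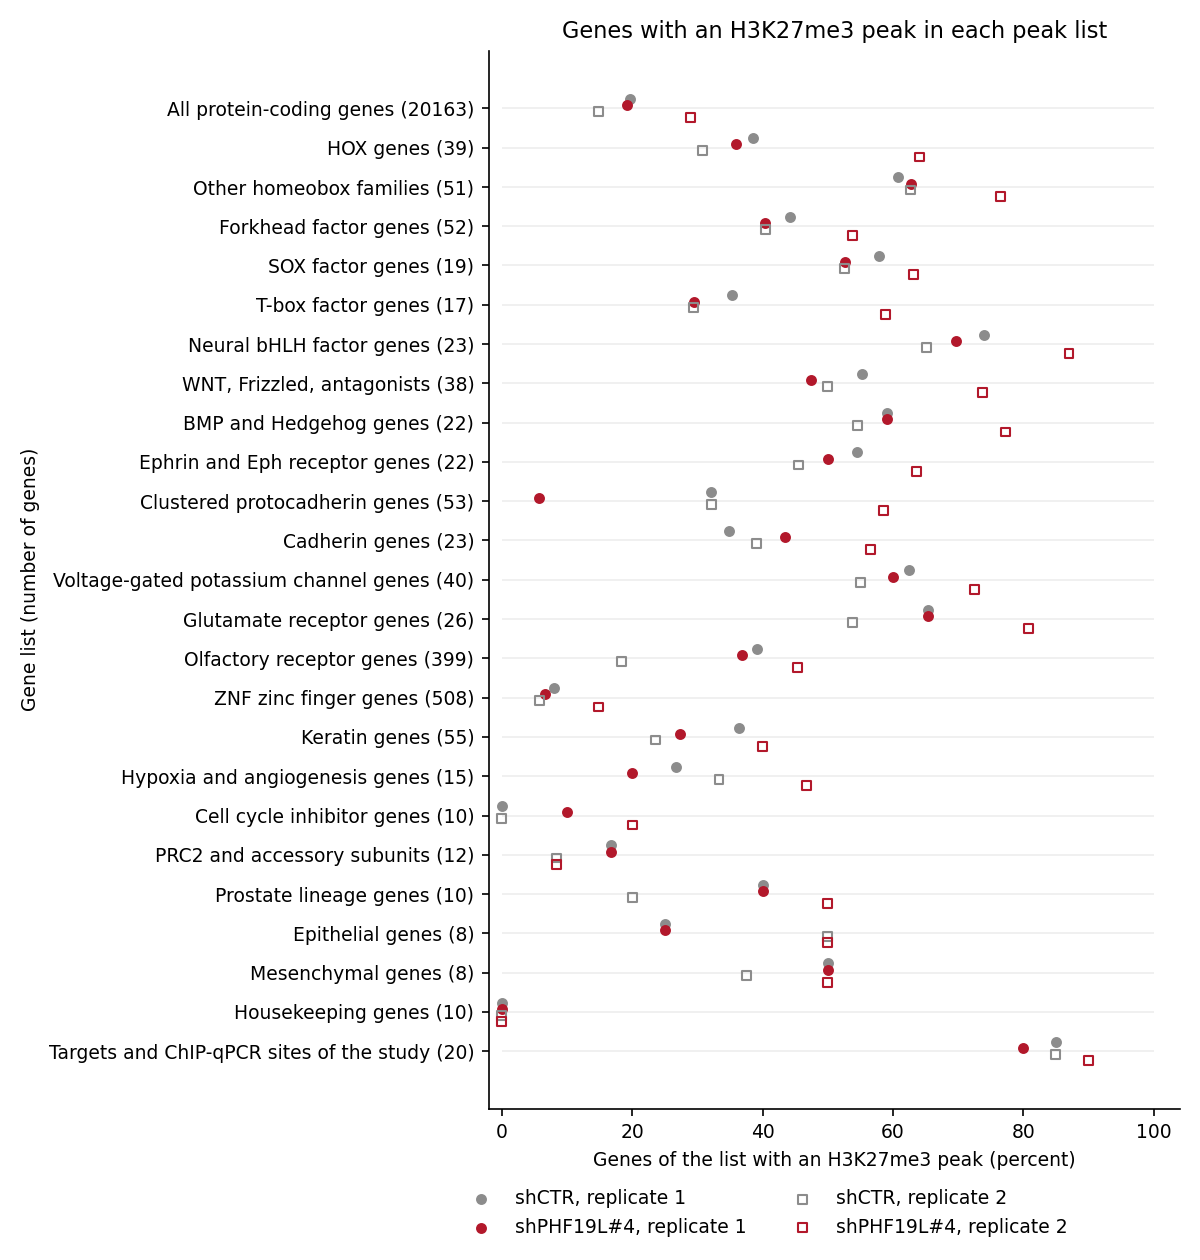
Percent of the genes of each list with an H3K27me3 peak (horizontal axis), for shCTR in grey and shPHF19L#4 in red, replicate 1 as filled circles and replicate 2 as open squares, with the number of genes in parentheses and lists of under 8 genes left out. In replicate 2 the shPHF19L#4 mark lies to the right of the shCTR mark in most lists, while in replicate 1 it lies to the left in many lists, as for HOX genes (38.5% and 35.9%) and, with the widest gap, clustered protocadherins (32.1% and 5.66%).

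Markers of the cell type were read from the same lists. The epithelial keratin genes KRT8, KRT18 and KRT19 had no H3K27me3 peak in any of the 4 lists, nor had the mesenchymal genes VIM, CDH2 and ZEB1, while the mesenchymal genes ZEB2 and FN1 had a peak in all 4 and SNAI2 in 3. EPCAM and CDH1, epithelial adhesion genes, had peaks in replicate 2 alone, of 1.40 and 1.28 kb in shCTR and 1.73 and 2.61 kb in shPHF19L#4 cells. Of the 8 epithelial genes, 2 had a peak in all 4 lists. One of them was OVOL1, covered over 4.58 and 5.78 kb in replicate 1 and over 3.53 and 5.60 kb in replicate 2. Among prostate genes, KLK2, a kallikrein, was covered over 19.9 and 15.2 kb in replicate 1 and over 7.93 and 19.8 kb in replicate 2. TWIST1, a factor of mesenchymal cells, was covered over 32.3 and 34.6 kb in replicate 1 and over 15.7 and 58.8 kb in replicate 2, in an annotated extent of 99.1 kb that includes read-through transcripts. A missing H3K27me3 peak does not show that a gene is transcribed, so these values do not settle the cell type.

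Most genes that the study names as PHF19L targets or tested by ChIP-qPCR carried H3K27me3 in both conditions. The list holds 20 genes, among them GATA2, which the study used as a negative control for PHF19L binding. Of the 20, 17, 16, 17 and 18 had a peak, and 15 had a peak in all 4 lists. None was gained in both replicates, while 1.43% of all protein-coding genes were. A list of 20 is too small to set 0 apart from that share. The 15 genes with a peak in all 4 lists could not count as gained. Covered length was larger in both replicates in 8 of the 20, and smaller in replicate 1 but larger in replicate 2 in 9. The study chose these genes on its own data, so their count is no independent evidence. A listed region lay in 3 of them (15.0%): SHH, EPHB3, an Eph receptor, and NDRG2, a tumour suppressor. EPHB3 had 1.98 kb in shCTR and 2.05 kb in shPHF19L#4 cells of replicate 1, and 0 and 5.33 kb in replicate 2. NDRG2 had 15.7 and 13.8 kb in replicate 1, and 5.88 and 22.7 kb in replicate 2. ADM, which encodes the vasodilator adrenomedullin, was among the 9, with 3.64 and 0 kb in replicate 1 and 1.08 and 3.79 kb in replicate 2. HMGA2 had no peak in any list, nor had the negative control GATA2.

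Listed H3K27me3 regions overlapped the authors' table of differing EZH2 regions more often than candidate regions did. EZH2 regions overlapped 312 of the 1049 (29.7%, against 4.07% of candidate regions), and 242 of the 312 lay at promoters. Of the 2408 EZH2 regions, 12.8% were overlapped by a listed region. The EZH2 peaks of shCTR cells overlapped 3 listed regions in replicate 1 (0.286%, against 1.99% of candidate regions) and 68 in replicate 2 (6.48%, against 1.90%). The SUZ12 table overlapped 24 (2.29%, against 0.838%), and the PHF19 regions of control cells 33 (3.15%, against 1.86%). SUZ12 peaks of shCTR cells overlapped 1 listed region in each replicate (0.0953%, against 0.990% of candidate regions in replicate 1 and 0.346% in replicate 2). The EZH2 and SUZ12 tables compare the same pair of hairpins, and the PHF19 table compares shCTR cells with input.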

How the data were processed

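H3K27me3 ChIP-seq of DU145 cells was read from the 4 peak lists and the table of differing regions that the authors deposited. The authors mapped reads with Bowtie to hg19 and dm3, kept reads with a unique position, called peaks with MACS in each replicate against its control with a shift size of 100 bp, and compared conditions with DiffBind; versions are not given in the sources used here. The score of a peak is the MACS score as the authors deposited it, with no scaling between samples or to the fly spike-in. The log2 values are the mean read concentrations of each condition that the authors deposited, with no value per replicate. The 3 columns of the authors' own comparison (fold, P value, FDR) were not used. The table has 2 header lines that name its last group differently, and it was read by the second, as shPHF19L#4.

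Members and gene lists were chosen with earlier results of these data known. Named genes are those of the 20 listed regions with the largest differences and of each lower region, the 10 genes with the most listed regions and a gene tied with them (TENM2), the study's named targets and ChIP-qPCR sites, the cell type markers, and up to 4 genes per list with the largest gain or loss of covered length in the same direction in both replicates. Other genes were named after their values were seen. Genes come from GENCODE release 44 lifted to GRCh37. Peaks overlapped when they shared at least 1 base. No test was run, and conditions were compared within each replicate. Alternatives changed the score minimum, number of peaks, overlap, promoter, gene set, region set and replicates. Python 3.11.15, numpy 2.4.6, pandas 2.3.3, scipy 1.17.1, pysam 0.24.0 and matplotlib 3.10.9 were used.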

Additional observations from a re-analysis of the deposited data

Results flagged for a closer look

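Peaks of MTF2, an accessory subunit of PRC2, overlapped more of the listed H3K27me3 regions in depleted cells than in control cells, a signal in data that the comparisons above do not use. In replicate 1 the number was 39 of 1049 in shCTR and 270 in shPHF19L#4 cells, and in replicate 2 it was 634 and 776. Among candidate regions the share was 2.76% and 5.37% in replicate 1, and 17.6% and 24.3% in replicate 2. The difference was not tested.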

How the results depend on the processing

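No paired analysis was possible because the table gives no value per replicate and the results come from no test. This applies to the differences of the listed regions. The peak lists do exist for each sample, and their conditions were compared within each replicate. Of 75 alternatives over 20 results, 46 kept the value within its limit, 29 moved it further, and 0 reversed it. Only the ratios and the median difference could be reversed. Counts and shares cannot change sign, so for them the 0 was fixed in advance. The limit was 1.5 times for counts and ratios, the spread between replicates for shares of peaks, and the 95% interval over regions for the promoter share, the listed share and the median difference. The spread between replicates was wide, with 79.1% and 16.9% of shPHF19L#4 peaks overlapped by shCTR peaks. Moves of that share in replicate 2 from 16.9% to 5.97% and to 49.0% therefore counted as kept, so this limit was a weak check. With the same number of highest-scoring peaks from each list, the ratio of covered length in replicate 2 was 3.21, listed regions gained were 186 in replicate 1, 476 in replicate 2 and 110 in both, genes gained were 1101 in replicate 2 and 150 in both, and genes lost were 226 in replicate 2 and 28 in both. With scores of at least 100, listed regions gained in replicate 1 were 193, and genes lost were 15 in replicate 2 and 2 in both. Over all 64449 annotated genes, gains were 998, 6861 and 627 in replicate 1, replicate 2 and both, losses were 1461, 70 and 14, and the promoter share was 60.9% (candidate regions 24.5%). The promoter share was 45.4% with 1 kb to each side (candidate regions 9.35%) and 44.3% by the midpoint (9.02%). The median difference was 1.07 over regions with peaks in both shPHF19L#4 replicates. Leaving out a replicate gave 320 to 847 listed regions gained, 471 to 2915 genes gained and 38 to 559 genes lost. Alternatives chosen after seeing the data gave a promoter share of 41.8% over regions gained in both (10.1%), a median difference of 1.11 over regions at least 1 kb wide, and a listed share of 2.40% of candidate regions with peaks in both shPHF19L#4 lists. The cause was not tested.

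Depth is unknown, so differences in peak number or score between samples and differences in reads cannot be told apart. The spike-in was not applied to the lists, and the level of PHF19 was not analysed here.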

Other observations

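Chromosome 19 held 122 of the 1049 listed H3K27me3 regions (11.6%, against 2.94% of candidate regions), 77 of them at promoters. The table listed 7.14% of the candidate regions of chromosome 19, whose median GC content was 49.9%, against 4.54% of those of chromosome X and 0.715% of those of chromosome 14. Within 5 Mb of a chromosome end lay 262 of the 1049 listed regions, against 9.54% of candidate regions.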
